A study of Mus musculus with 10 samples.

Results

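The 43 genes described here encode proteins that license and copy DNA, drive entry into S phase and mitosis, and build and break the mitotic spindle. They were taken as a list of symbols, matched by gene ID to the rows of the count table, and all 43 of the 43 were found among 27179 genes counted. They were measured by RNA sequencing of effector memory (EM) γδ T cells, sorted directly from spleen as CD3+ γδTCR+ cells that lacked CD62L and carried CD44. The pre-exposed group comprised 5 female C57BL/6 mice infected intravenously at 6 to 8 weeks of age with 50000 red blood cells carrying Plasmodium chabaudi, a rodent malaria parasite. From day 14 these mice received chloroquine and pyrimethamine, and spleens were taken 12 weeks after the end of treatment. The naïve group comprised 5 uninfected female C57BL/6 mice that received the same drugs. Each library came from 1 mouse, and the cells were not stimulated in vitro. The question put to these genes was whether EM γδ T cells of pre-exposed mice, long after the parasites had been cleared, held more transcripts of dividing cells than those of naïve mice.

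Cell cycle genes are switched on in waves. E2F factors, released from pocket proteins at the end of G1, turn on the MCM helicase, nucleotide synthesis enzymes and replication factors. A later wave, controlled through CCAAT boxes and cell cycle homology region (CHR) elements, brings up the cyclins, kinases and spindle proteins of G2 and mitosis. Resting T cells hold little of the second wave, so its transcripts are commonly read as a sign of cells in cycle. In bulk RNA a larger share of cycling cells and more RNA per cycling cell cannot be told apart.

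The promoters of 5 members are shown because they differ in which of the letters of the 2 waves they carry, Tyms carrying none, and belong to genes that behaved differently in the data. Each line holds the 250 bases before the first start listed for the gene in RefSeq (GRCm38.p6), read 5′ to 3′ on the gene's strand. Capitals mark CCAAT, the CHR letters TTTGAA or TTCGAA, and the E2F letters TTTCCCGC or TTTGGCGC, each on either strand. TTCGAA is its own reverse complement, and neighbouring CCAAT matches on opposite strands can overlap.
Ube2c, chr2:164769679-164769928, plus strand: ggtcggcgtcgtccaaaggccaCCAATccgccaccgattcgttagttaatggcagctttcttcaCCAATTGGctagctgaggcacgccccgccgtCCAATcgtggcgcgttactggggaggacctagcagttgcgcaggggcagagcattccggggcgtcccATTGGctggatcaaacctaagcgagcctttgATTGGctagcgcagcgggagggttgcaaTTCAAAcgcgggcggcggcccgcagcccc
Cdk1, chr10:69352913-69353162, minus strand: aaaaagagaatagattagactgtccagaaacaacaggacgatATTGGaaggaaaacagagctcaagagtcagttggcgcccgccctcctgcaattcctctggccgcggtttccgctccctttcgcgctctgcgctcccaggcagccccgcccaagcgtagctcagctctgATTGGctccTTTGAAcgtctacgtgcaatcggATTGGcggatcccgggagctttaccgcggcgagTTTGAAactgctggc
Top2a, chr11:99024190-99024439, minus strand: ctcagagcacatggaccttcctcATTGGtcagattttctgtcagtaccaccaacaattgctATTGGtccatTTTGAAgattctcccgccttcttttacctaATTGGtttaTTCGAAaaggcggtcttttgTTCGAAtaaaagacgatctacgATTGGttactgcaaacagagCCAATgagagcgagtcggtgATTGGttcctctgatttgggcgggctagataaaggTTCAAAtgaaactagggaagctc
Cdc6, chr11:98907901-98908150, plus strand: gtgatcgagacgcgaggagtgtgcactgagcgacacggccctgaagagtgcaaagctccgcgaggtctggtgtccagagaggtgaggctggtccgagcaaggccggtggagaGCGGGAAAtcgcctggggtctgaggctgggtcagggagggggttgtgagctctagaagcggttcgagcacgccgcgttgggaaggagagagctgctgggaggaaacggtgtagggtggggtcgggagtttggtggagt
Tyms, chr5:30073626-30073875, minus strand: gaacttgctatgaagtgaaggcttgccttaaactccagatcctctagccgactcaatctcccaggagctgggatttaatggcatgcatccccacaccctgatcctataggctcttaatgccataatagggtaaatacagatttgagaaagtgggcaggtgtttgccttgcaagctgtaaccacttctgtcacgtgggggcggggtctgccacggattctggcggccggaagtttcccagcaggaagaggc
Of the 43 members, 36 had a promoter in the RefSeq table. CCAAT stood in 26 of these 36 (72.2%), against 34.5% of 27025 promoters of the same length. CHR letters stood in 10 (27.8%), against 17.4% of all promoters, and all 10 also held CCAAT, against 6.21% of all promoters with both. E2F letters stood in 4 (11.1%), namely Mcm5, Mcm6, Mcm7 and Cdc6, against 1.35% of all promoters. Among 9825 promoters of the genes tested, CCAAT stood in 37.1%, CHR letters in 12.7%, both in 5.12% and E2F letters in 2.68%. Ube2c, Cdk1 and Top2a held CCAAT together with CHR letters, Cdc6 held an E2F match alone, and Tyms held none of these letters in this window. The Cdc6 window lies inside the gene as mapped here, which begins at chr11:98907709. Its E2F match is therefore not shown to lie before the outermost start of Cdc6. The E2f1 and Aurka windows, counted among the 36, also lie inside their genes. Most of the Mcm7 window lies inside its gene as mapped here, which ends at chr5:138172111, and so does its E2F match. The matches describe the letters only.

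The libraries held 8747888 to 22542832 read pairs counted in genes in pre-exposed mice and 6587199 to 19993444 in naïve mice. Levels are given as CPM, a gene's counts scaled to a library of 1000000 counts with TMM factors (trimmed mean of M-values), and all 43 members had enough counts to be tested. The sorted cells held Trdc, the δ chain constant gene, at 1141 to 3626 CPM in pre-exposed and 1826 to 3873 CPM in naïve mice, and Cd3e, a CD3 chain, at 557 to 1346 CPM in pre-exposed and 619 to 722 CPM in naïve mice. Several libraries stood apart. The top 10 genes held 24.7% of counts in pre-exposed mouse 5, against 6.62% to 10.2% in naïve mice, and mouse 5 had a TMM factor of 0.68. Pre-exposed mice 2 to 4 have a library description without the index pair that the other 7 libraries carry, and their counts leaned toward short genes. The rank correlation across genes between a library's deviation from the mean of all 10 and gene length was -0.54, -0.42 and -0.24 in these 3 mice, 0.27 in mouse 1, -0.14 in mouse 5, and 0.26 to 0.41 in naïve mice. The results below are therefore given for all mice and again without the libraries concerned.

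As a sum, cell cycle transcripts were higher in 4 of the 5 pre-exposed mice and not in the fifth. The summed level of the 43 genes was 3578, 2212, 2239, 1754 and 1138 CPM in pre-exposed mice 1 to 5, against 1647, 1129.8, 1453, 1433 and 1712 CPM in naïve mice 1 to 5. Mice 1 to 4 lay above every naïve mouse and mouse 5 lay at the level of the lowest one. With size factors of DESeq2 in place of TMM, mouse 4 came to 1606 CPM and no longer exceeded naïve mouse 5, at 1729 CPM. Without TMM, mouse 5 came to 774 CPM, below the lowest naïve mouse at 1147 CPM. By function, mouse 4 exceeded every naïve mouse for the sums of licensing (734 CPM) and DNA synthesis (340 CPM). Its sums for the other groups, such as 152 CPM for the G2/M cyclins and kinases, lay within the naïve range. Mouse 1 was the highest of all 10 libraries for 38 of the 43 genes, and mouse 5 was the lowest of all 10 for 23. In mouse 1, 40 of 43 members exceeded all naïve mice, where 16.4% of all genes tested did so. In mice 2, 3 and 4 the members above all naïve mice numbered 26, 29 and 19, where 33.2%, 27.9% and 32.1% of all genes did so. In mouse 5 only 7 members lay above and 23 lay below all naïve mice, where 31.3% of all genes lay above and 38.2% below.

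**Figure D1:**
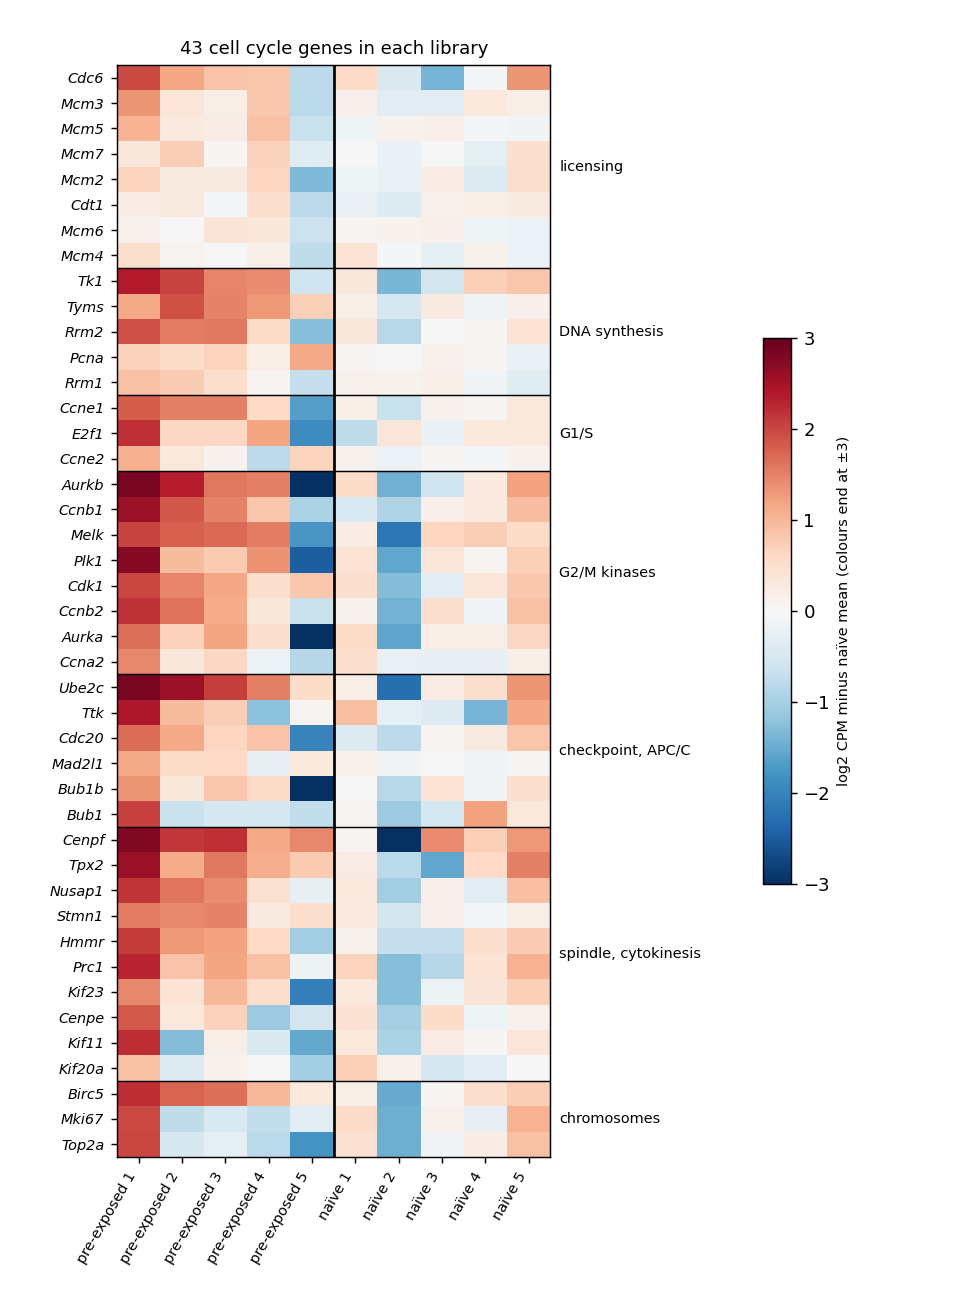
Log2 CPM of each of the 43 genes (rows, grouped by function) in each of the 10 libraries (columns, pre-exposed mice left, naïve mice right), as the difference from the mean of the 5 naïve mice, with colours ending at ±3. Pre-exposed mouse 1 is the highest library for 38 genes, mouse 5 is the lowest for 23, and naïve mouse 2 is the lowest for 13.

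The naïve mice also differed among themselves. Naïve mouse 2 was the lowest naïve mouse for 28 members and naïve mouse 5 the highest for 26. Across the 43 genes the naïve range spanned a median of 1.54 on the log2 scale, and a median of 2.24 for the G2/M cyclins and kinases.

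Against this spread, 2 of the 43 genes rose in pre-exposed mice and 0 fell, by edgeR's quasi-likelihood test with Benjamini-Hochberg adjustment over 12655 genes. The background was 5.12% of all genes called higher and 1.18% called lower, so the members' share called higher, 4.65%, was near that of all genes. At an unadjusted p under 0.05, 18 members were higher. The fold change was above 0 on the log2 scale for 42 of 43 members, against 51.3% of all genes tested, and its median was 0.82 for the members and 0.02 for all genes. The 2 that rose were Tyms, thymidylate synthase, and Stmn1, the microtubule-destabilising protein stathmin.

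The result depended on single libraries. Without pre-exposed mouse 5, 16 members rose and 0 fell, where 9.69% of all genes were called higher and 5.72% lower, and the median log2 fold change was 0.98. The 16 were Tk1, Tyms and Rrm2 in DNA synthesis, Ccne1 in G1/S, Aurkb, Ccnb1, Ccnb2, Cdk1, Melk and Plk1 among the G2/M cyclins and kinases, Ube2c and Cdc20 around the anaphase-promoting complex, Stmn1, Nusap1 and Hmmr on the spindle, and Birc5. The count was 0 when naïve mouse 1 or 2 or pre-exposed mouse 2 was left out, with 14, 11 and 12 members at an unadjusted p under 0.05. Leaving out naïve mouse 3, 4 or 5 or pre-exposed mouse 3 left 1. Without pre-exposed mouse 1, the highest library for most members, 2 members rose, where 1716 genes were called in all. At an unadjusted p under 0.05, 8 members were then higher and 1 lower. The log2 fold change was above 0 for 36 of the 43 members there, with a median of 0.53. DESeq2 on all 10 mice called 5 members higher (Birc5, Pcna, Stmn1, Tyms and Ube2c), where it called 7.97% of all genes higher and 2.7% lower. voom with sample quality weights in limma called 17 members higher, where 14.8% of all genes were called higher and 13.4% lower. voom with TREAT, which asks for a change beyond 1.5-fold, called 0 members, with 7 at an unadjusted p under 0.05, where 0.0158% of all genes were called higher and 0 lower.

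Pre-exposed mice 1 to 4 all exceeded all 5 naïve mice for 12 of the 43 members and lay below them all for 0, where 6.68% of all genes tested did the first and 4.46% the second. The 12 were Aurkb, Birc5, Ccne1, E2f1, Mcm5, Melk, Pcna, Plk1, Rrm2, Tk1, Tyms and Ube2c, drawn from 6 of the 7 functional groups. Mouse 5, left out of this count, was the lowest pre-exposed mouse for 34 of the 43 members. Leaving it out therefore favoured the members in this comparison. With all 5 pre-exposed mice, 2 members (4.65%) exceeded all naïve mice, where 2.77% of all genes tested did so.

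**Figure D2:**
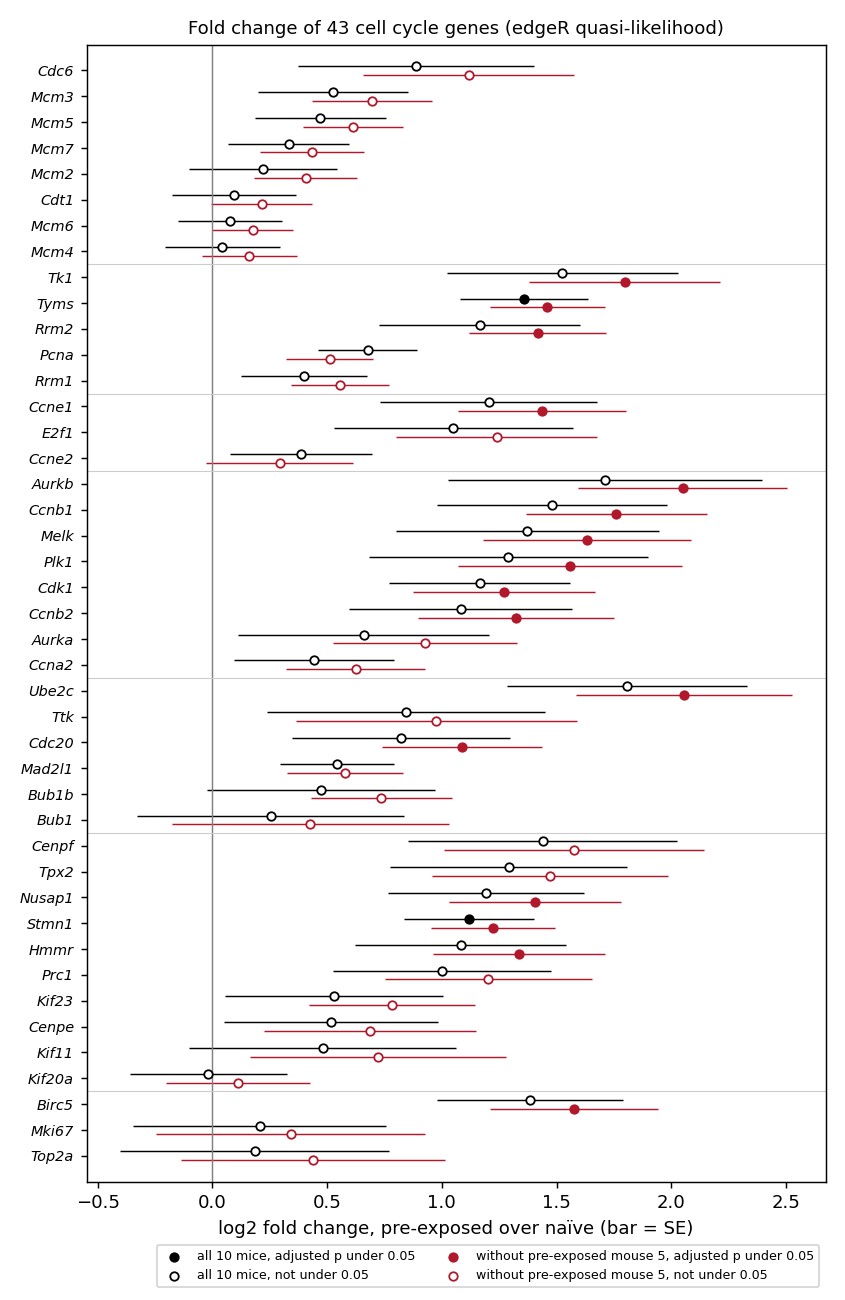
Log2 fold change (pre-exposed over naïve, edgeR quasi-likelihood, bars SE) of each of the 43 genes with all 10 mice (black) and without pre-exposed mouse 5 (red), filled where the adjusted p is under 0.05. There are 2 filled black points (Tyms and Stmn1) and 16 filled red points, none of them among the licensing genes.

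Markers of other cell types moved with the groups as well. Summed levels of 7 plasma cell markers were 5939, 5999, 2325, 723 and 801 CPM in pre-exposed mice 1 to 5, against 336 to 1084 CPM in naïve mice. Immunoglobulin genes, left out of the tests, took 4.5%, 6.68%, 1.7%, 0.556% and 0.345% of counts in pre-exposed mice 1 to 5, against 0.0845% to 0.737% in naïve mice. Summed levels of 8 monocyte and macrophage markers were 989.7, 1482, 628, 329 and 49.8 CPM in pre-exposed mice 1 to 5, against 35.9 to 159 CPM in naïve mice. The 6 conventional dendritic cell markers had sums of 408, 424, 227, 204 and 66.1 CPM in pre-exposed mice 1 to 5, against 57.3 to 80.3 CPM in naïve mice. Mice 1 to 3 exceeded every naïve mouse for the plasma cell sum, and mice 1 to 4 did for the other 2 sums, as they did for the sum of the 43 cell cycle genes. Mouse 2 had the highest sum for each of the 3 marker lists and mouse 1 the highest for the cell cycle genes. For the plasma cell and dendritic cell sums, mice 1 and 2 lay close together. The sum of the erythroid markers was 347, 705, 825, 1735 and 2041 CPM in pre-exposed mice 1 to 5, against 80.1 to 464 CPM in naïve mice, and was highest in mouse 5, where the cell cycle genes were lowest. For the 7 B cell markers the sum was 80.5 to 198 CPM in pre-exposed animals and 103 to 166 CPM in naïve ones, with Pax5 at 0 counts in every library. The sum was mostly Cd79b and Cd22, which did not pass, while 3 of the 5 B cell markers tested rose by edgeR's test with all mice, Blnk by 3.48, Ms4a1 by 2.88 and Cd79a by 2.88 on the log2 scale (adjusted p = 0.038, 0.037 and 0.038). Cd79a had 21.7, 20.5, 3.8998, 2.22 and 1.09 CPM in pre-exposed mice, against 0.776 to 2.72 CPM in naïve mice. For the 6 αβ T cell markers, pre-exposed mice 1 to 5 had sums of 1576, 3289, 2837, 2781 and 2574 CPM, against 1642 to 1992 CPM in naïve mice, so that mice 2 to 5 exceeded every naïve mouse and mouse 1 lay below them all. The 6 NK cell markers summed to 4079 CPM in pre-exposed mouse 5, where the cell cycle genes were lowest, and to 629 to 1308 CPM in the other pre-exposed animals, against 638 to 1673 CPM in naïve mice. The γδ T cell markers analysed were Trdc and the CD3 chains Cd3d, Cd3e and Cd3g, and the CD3 chains are not particular to γδ T cells. They summed to 3060 CPM in pre-exposed mouse 1, the lowest of all 10. The sum was 7179 to 10249 CPM in the other pre-exposed animals and 4283 to 7318 CPM in naïve mice. Trdc alone, given above, overlapped between the groups. The part of other cell types in the cell cycle result was not tested.

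None of the licensing and initiation genes passed the test with all mice, and their log2 fold changes ran between 0.04 and 0.89. MCM proteins form the replicative helicase, and Cdc6 and Cdt1 load it onto origins. The summed level of the 8 genes was 777, 606, 622, 734 and 317 CPM in pre-exposed mice 1 to 5, against 512 to 569.9 CPM in naïve mice, and 0 passed edgeR's test in either direction with all mice or without mouse 5, with 0 at an unadjusted p under 0.05 with all mice and 0 called by DESeq2. Their median log2 fold change was 0.28. Mcm6, the most abundant of them, had 212, 191, 254, 243 and 124 CPM in pre-exposed mice, against 200.3, 207, 216, 176 and 173 CPM in naïve mice. The Mcm6 groups overlapped, and its log2 fold change was 0.08 (SE 0.23). Mcm5 had 86.8, 51.5, 49.3, 76.8 and 26.5 CPM in pre-exposed mice, against 38.5, 45.8, 46.7, 40.0 and 39.4 CPM in naïve mice. Pre-exposed mice 1 to 4 exceeded every naïve mouse for Mcm5 and mouse 5 lay below them all, and the adjusted p was 0.32 with all mice and 0.065 without mouse 5. For Mcm3 the log2 fold change was 0.52 (SE 0.33), with 49.9 to 111 CPM in pre-exposed mice 1 to 4, 24.9 CPM in mouse 5 and 34.5 to 54.2 CPM in naïve mice. Cdc6 was low, at 2.73 to 19.7 CPM in pre-exposed and 1.75 to 12.3 CPM in naïve mice, with a log2 fold change of 0.89 (SE 0.51). With the trend in gene length removed and mouse 5 left out, Cdc6 and Mcm5 rose, by 1.41 and 0.68 on the log2 scale (edgeR adjusted p = 0.044 and 0.032), and voom with sample quality weights called Cdc6 higher (adjusted p = 0.035).

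DNA synthesis and nucleotide supply held both members in which all 5 pre-exposed mice exceeded all 5 naïve mice. Tyms makes the thymidylate used in DNA, and lies at chr5:30038546-30073645 (GRCm38.p6). It had 31.4, 53.3, 40.0, 34.8 and 23.1 CPM in pre-exposed mice, against 15.9, 9.82, 17.1, 13.1 and 15.8 CPM in naïve mice. For Tyms every pre-exposed mouse, mouse 5 included, lay above every naïve mouse, a pattern held by 2.77% of all genes tested. Tyms averaged 36.5 ± 11.2 CPM in pre-exposed and 14.3 ± 2.9 CPM in naïve mice (SD, n = 5 each), and its log2 fold change was 1.36 (SE 0.28, edgeR adjusted p = 0.018). With 1 mouse left out at a time the Tyms fold change ranged over 1.15 to 1.46 on the log2 scale and its adjusted p over 0.0022 to 0.065, past 0.05 when naïve mouse 1 (0.051) or 2 (0.052) or pre-exposed mouse 2 (0.065) was left out. Pcna, the sliding clamp of DNA polymerases, was the other such member. It had 154, 141, 154, 110.5 and 211 CPM in pre-exposed mice, against 98.0, 97.0, 105, 99.2 and 81.5 CPM in naïve mice. Pcna did not pass (log2 fold change 0.68, SE 0.22, edgeR adjusted p = 0.073), and unlike most members it was highest in mouse 5. Pcna is short, at 1260 bases, and with the trend in gene length removed its log2 fold change was 0.29 (adjusted p = 0.56). With mouse 5 also left out it was 0.06 (adjusted p = 0.87).

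Tk1, the thymidine kinase of S phase, had 25.3, 19.8, 13.5, 13.05 and 3.09 CPM in pre-exposed mice, against 6.09, 1.76, 3.23, 7.92 and 8.67 CPM in naïve mice. Its pre-exposed mice 1 to 4 exceeded all naïve mice, and its log2 fold change was 1.52 (SE 0.50, edgeR adjusted p = 0.081), or 1.80 (SE 0.41, adjusted p = 0.013) without mouse 5. Rrm2, the regulated subunit of ribonucleotide reductase and named after its values were seen, had 185, 140.4, 147, 72.0 and 19.8 CPM in pre-exposed mice, against 27.2 to 64.4 CPM in naïve mice. Mice 1 to 4 again lay above and mouse 5 below the naïve range of Rrm2.

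The 3 G1/S regulators did not pass with all mice by edgeR or DESeq2, and Ccne1 had an unadjusted p under 0.05. Ccne1, the cyclin E that activates CDK2, had 13.7, 11.2, 11.1, 5.83 and 1.09 CPM in pre-exposed mice, against 4.33, 2.33, 4.17, 3.899 and 4.77 CPM in naïve mice. Ccne1 rose when mouse 5 was left out, by 1.44 on the log2 scale (SE 0.37, edgeR adjusted p = 0.020). Its paralogue Ccne2 had 39.2, 23.4, 20.1, 10.9 and 30.0 CPM in pre-exposed mice, against 16.5 to 20.1 CPM in naïve mice, with no such separation. E2f1, a transcriptional activator of S phase genes, stood at 14.7, 4.91, 4.85, 7.29 and 0.727 CPM in pre-exposed mice, against 1.76 to 4.03 CPM in naïve mice.

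The G2/M cyclins and kinases had the largest median log2 fold change of the 7 functional groups, 1.23 with all mice and 1.44 without mouse 5, followed by the genes of DNA synthesis at 1.16 and 1.42. With pre-exposed mice 2 to 4 alone the genes of DNA synthesis had the largest median, 1.21, and the G2/M group had 0.99. The summed level of the 8 genes was 438, 244, 225, 152 and 68.5 CPM in pre-exposed mice 1 to 5, against 153, 74.1, 112, 116 and 168 CPM in naïve mice. None of the 8 passed with all mice by edgeR's quasi-likelihood test, 5 of the 8 had an unadjusted p under 0.05, DESeq2 called 0, and 6 rose without mouse 5. Ccnb1, cyclin B1, the partner of the mitotic kinase CDK1, had 66.8, 40.4, 31.0, 19.8 and 5.63 CPM in pre-exposed mice, against 7.93, 5.84, 12.2, 13.5 and 21.0 CPM in naïve mice. Mouse 4 fell within the naïve range of Ccnb1 and mouse 5 below it. The log2 fold change of Ccnb1 was 1.48 (SE 0.50, edgeR adjusted p = 0.087), and 1.76 (SE 0.39, adjusted p = 0.011) without mouse 5.

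Cdk1 itself had 45.2, 31.1, 24.8, 16.1 and 19.6 CPM in pre-exposed mice, against 15.5, 4.39, 8.74, 14.2 and 19.5 CPM in naïve mice. Unlike Ccnb1 it was not low in mouse 5, and its log2 fold change was 1.16 (SE 0.39, edgeR adjusted p = 0.087). Aurkb, the kinase of the chromosomal passenger complex, had 41.8, 29.6, 17.1, 16.4 and 0 CPM in pre-exposed mice, against 8.29, 1.96, 3.63, 6.97 and 13.1 CPM in naïve mice. The 0 in mouse 5 is a count of 0, which allows up to 0.545 CPM at 3 counts, by counting error only. Mice 1 to 4 exceeded the naïve range of Aurkb and mouse 5 lay below it. The log2 fold change of Aurkb was 1.71 (SE 0.68, edgeR adjusted p = 0.14) with all mice and 2.05 (SE 0.46, adjusted p = 0.011) without mouse 5. Ccna2, cyclin A2, which acts from S phase into G2, was the most abundant of the group at 169.7, 79.8, 96.0, 55.7 and 34.7 CPM in pre-exposed mice, against 53.3 to 89.7 CPM in naïve mice, and its log2 fold change was 0.44 (SE 0.35).

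The plot of CPM by mouse shows 12 of these members side by side. Mouse 1 has the highest value in every panel but those of Tyms, Pcna and Mcm6.

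**Figure D3:**
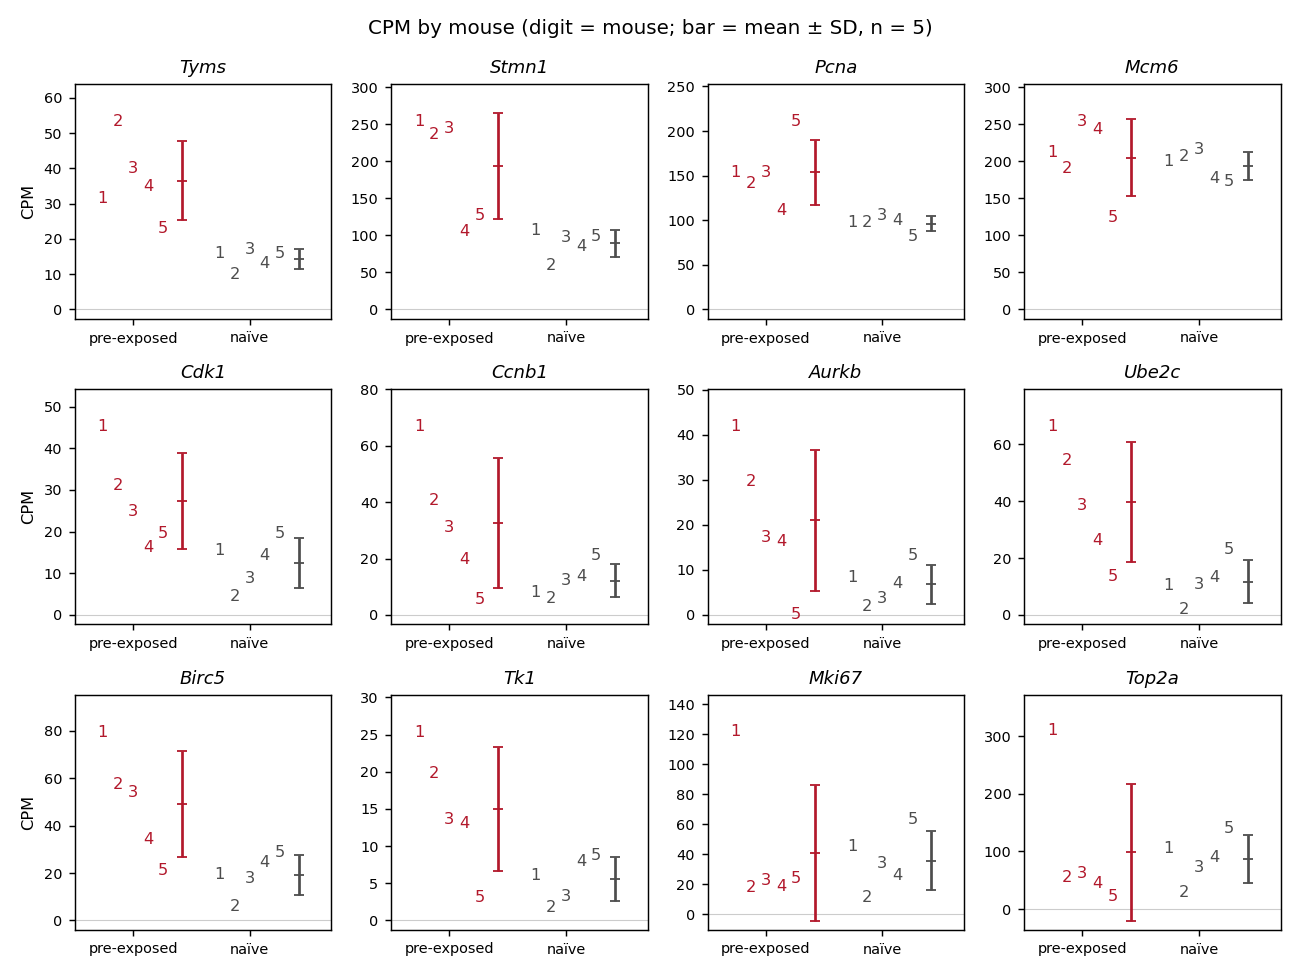
CPM (vertical axes, linear, a separate scale per gene) of 12 genes in pre-exposed mice (red, left) and naïve mice (grey, right), each digit being 1 mouse and each bar the mean ± SD of 5 mice. Tyms and Pcna separate all 5 pre-exposed from all 5 naïve mice, whereas Mki67 and Top2a are high in pre-exposed mouse 1 only.

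Around the spindle checkpoint and the anaphase-promoting complex (APC/C), Ube2c had the largest log2 fold change of all 43 members, 1.81 (SE 0.52, edgeR adjusted p = 0.053). Ube2c is the ubiquitin-conjugating enzyme that works with the APC/C to destroy cyclins. It had 66.1, 54.3, 38.4, 26.2 and 13.4 CPM in pre-exposed mice, against 10.3, 1.76, 10.7, 13.1 and 22.8 CPM in naïve mice. Mice 1 to 4 lay above the naïve range and mouse 5 within it, and without mouse 5 Ube2c rose by 2.06 on the log2 scale (SE 0.47, adjusted p = 0.013). Ube2c is the shortest member, at 931 bases. With the trend in gene length removed its log2 fold change was 1.29 and no longer the largest. Members above it there included Cenpf (1.89), Tyms (1.61), Birc5 (1.53), Tpx2 (1.52), Aurkb (1.49), Ccnb1 (1.40) and Melk (1.40). Without mouse 5 as well, the edgeR adjusted p of Ube2c was 0.063. Cdc20, the APC/C activator that the checkpoint holds back, had 27.4, 18.7, 13.2, 15.5 and 2.00 CPM in pre-exposed mice, against 4.81 to 15.03 CPM in naïve mice. Mad2l1, the checkpoint protein that binds Cdc20, was the most abundant of this group at 130.4, 87.6, 90.3, 49.7 and 74.1 CPM in pre-exposed mice, against 54.8 to 65.0 CPM in naïve mice. Its log2 fold change was 0.54 (SE 0.25, edgeR adjusted p = 0.19), and mouse 4, not mouse 5, was its lowest pre-exposed mouse.

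Among 10 genes of the spindle, kinetochore and cytokinesis, Stmn1 passed with all mice. Stmn1 lies at chr4:134468320-134473843 and was the most abundant member per length, at 182 RPKM (CPM per 1000 bases of exon) in pre-exposed and 84.0 RPKM in naïve mice. It had 254, 236, 244, 105 and 126 CPM in pre-exposed mice, against 107, 59.4, 97.0, 84.4 and 97.8 CPM in naïve mice. Only mouse 4, at 105 CPM, overlapped the naïve range. Stmn1 averaged 193 ± 71.3 CPM in pre-exposed and 89.0 ± 18.4 CPM in naïve mice (SD, n = 5 each), and rose by 1.12 on the log2 scale (SE 0.28, edgeR adjusted p = 0.035). Leaving out 1 mouse at a time moved its adjusted p over 0.011 to 0.11, and past 0.05 without any one of the naïve mice or of pre-exposed mice 2 and 3, and with the trend in gene length removed its log2 fold change was 0.63 (adjusted p = 0.29).

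Nusap1, which bundles spindle microtubules, had 85.9, 59.1, 52.2, 26.9 and 16.4 CPM in pre-exposed mice, against 24.3, 9.31, 21.4, 15.5 and 36.3 CPM in naïve mice. Mice 1 to 3 stood above the naïve range, and Nusap1 rose by 1.41 on the log2 scale without mouse 5 (SE 0.38, edgeR adjusted p = 0.025). Tpx2, the activator of Aurora A on the spindle, had 40.9, 14.5, 20.3, 14.4 and 11.6 CPM in pre-exposed mice, against 7.9995, 3.72, 2.15, 10.3 and 19.5 CPM in naïve mice, with a log2 fold change of 1.29 (SE 0.52, adjusted p = 0.14). Kif20a, a cytokinesis kinesin, was the 1 member with a fold change below 0, at -0.02 (SE 0.34) on the log2 scale.

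The 3 proliferation markers on chromosomes did not move together. Birc5, survivin, a partner of Aurora B, had 79.3, 57.4, 54.0, 34.1 and 21.1 CPM in pre-exposed mice, against 19.5, 5.89, 17.5, 24.5 and 28.5 CPM in naïve mice. Its log2 fold change was 1.38 (SE 0.41, edgeR adjusted p = 0.056), and 1.58 (SE 0.37, adjusted p = 0.014) without mouse 5. Mki67, which encodes the Ki-67 antigen, had 122, 18.1, 22.5, 18.5 and 24.2 CPM in pre-exposed mice, against 45.2, 11.1, 33.6, 25.8 and 63.3 CPM in naïve mice. Top2a, the topoisomerase that untangles replicated chromosomes, had 310.3, 54.8, 62.4, 43.6 and 21.98 CPM in pre-exposed mice, against 105, 27.9, 72.8, 89.2 and 141 CPM in naïve mice. Both were far higher in mouse 1 than in any other library and lay within or below the naïve range in mice 2 to 5. Their log2 fold changes were 0.21 (SE 0.55) for Mki67 and 0.18 (SE 0.58) for Top2a.

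**Figure D4:**
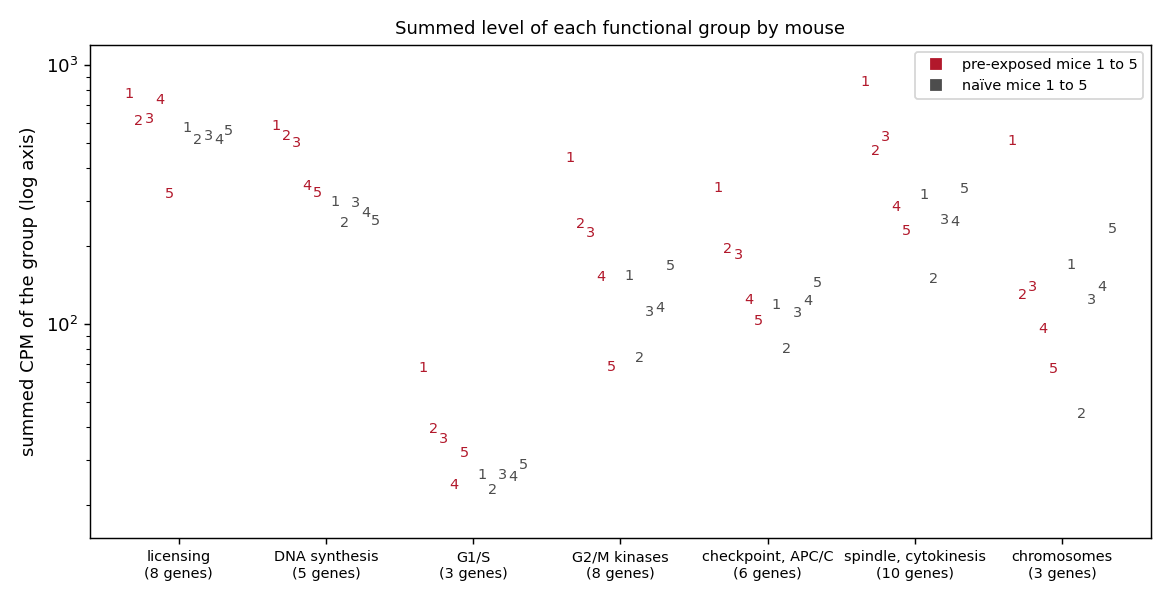
Summed CPM (log axis) of each of the 7 functional groups, with pre-exposed mice in red (left in each pair) and naïve mice in grey, each digit being 1 mouse. Pre-exposed mouse 1 is the highest library in every group, and for the chromosome group it has 512 CPM, whereas pre-exposed mice 2 to 5 have 67.2 to 139 CPM and naïve mice 44.9 to 232 CPM.

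Mki67 and Top2a are long genes, at 10075 and 5217 bases of exon counted, and the members were compared by length. They were divided at their median length of 2960 bases. In pre-exposed mice 2, 3 and 4 the shorter 22 members lay above the naïve mean by a median of 1.29, 1.13 and 0.58 on the log2 scale, and the longer 21 by 0.33, 0.69 and 0.52, so that the medians lay close together in mouse 4. Genes of all kinds divided at the same length showed medians of 0.46, 0.31 and 0.38 for the shorter and -0.60, -0.33 and -0.16 for the longer in these 3 mice. In mouse 1 the members did not divide by length, with 1.87 for the shorter and 1.98 for the longer, and in mouse 5 the medians were -0.80 and -0.68. Of the 16 members that rose without mouse 5, 13 were among the shorter and 3 among the longer.

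Kif11, the motor that separates spindle poles, and Bub1, a checkpoint kinase, are further long members and were named after their values were seen. Kif11 had 155, 13.2, 37.4, 24.2 and 11.3 CPM in pre-exposed mice, against 40.9, 16.96, 39.1, 33.9 and 42.2 CPM in naïve mice. Bub1 had 51.9, 7.83, 8.60, 8.81 and 7.45 CPM in pre-exposed mice, against 13.3, 5.74, 8.61, 28.9 and 15.6 CPM in naïve mice. Like Mki67 and Top2a, both were high in mouse 1 only. Cenpf, a kinetochore protein and the longest member at 11130 bases, was also named afterwards and went the other way, with 32.4, 20.5, 21.5, 10.3 and 12.7 CPM in pre-exposed mice, against 4.92, 0.259, 12.5, 7.68 and 11.7 CPM in naïve mice.

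Removing each library's trend with gene length left the members' median log2 fold change at 0.64 with all mice, and 1 member rose (Tyms, 1.61, edgeR adjusted p = 0.016), where 1.38% of all genes were called higher and 0.308% lower. With the trend removed and mouse 5 left out, a choice made after the data were seen, 16 members rose, 8 shorter and 8 longer ones, where 4.95% of all genes were called higher and 5.53% lower. Of these, 11 were among the 16 called without mouse 5 before the trend was removed. Ube2c, Stmn1, Plk1, Cdc20 and Ccnb2 were no longer called (edgeR adjusted p from 0.063 to 0.15), and Cdc6, Cenpf, Mcm5, Rrm1 and Tpx2 were called in addition. Pre-exposed mice 2 to 4 alone gave 12 members higher than in the naïve mice, where 15.1% of all genes were called higher and 14.5% lower, and a median log2 fold change of 0.66. Mice 1 and 5 alone, whose labels match those of the naïve mice, gave 0 members called, where 0.206% of all genes were called higher, with 15 members at an unadjusted p under 0.05 and a median of 1.11.

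**Figure D5:**
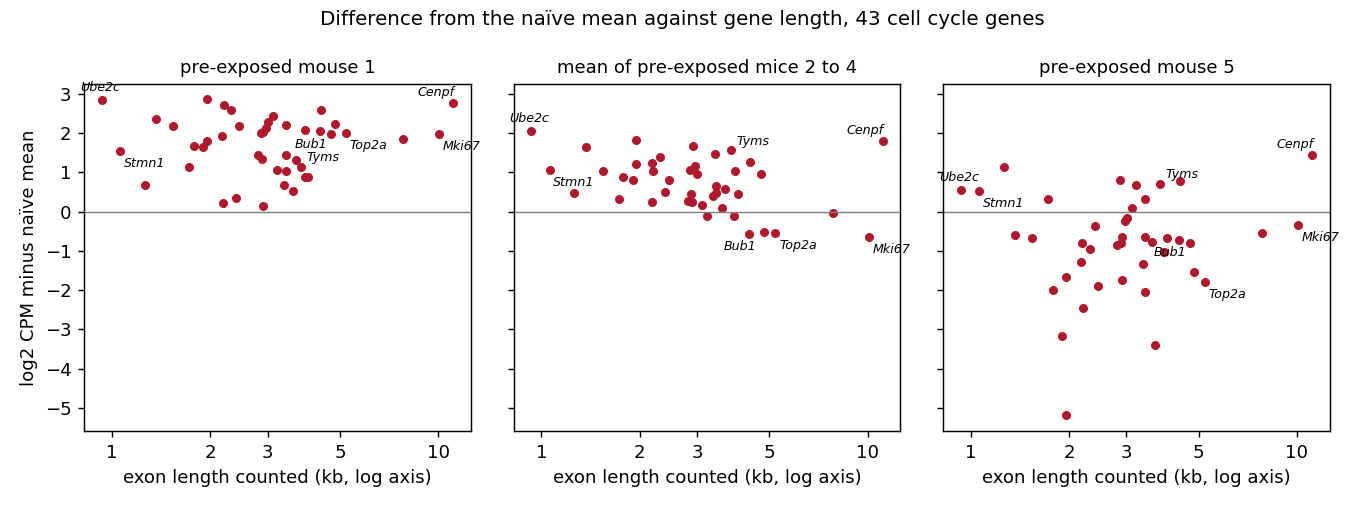
Difference in log2 CPM from the naïve mean (vertical axis) against exon length counted (kb, log axis) for the 43 genes in pre-exposed mouse 1, as the mean of pre-exposed mice 2 to 4, and in pre-exposed mouse 5. All 43 points lie above 0 in mouse 1, 36 do in the mean of mice 2 to 4, where Mki67, Top2a and Bub1 fall below it, and 11 do in mouse 5.

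Across the rest of the cell cycle machinery, lists written with earlier results known gave smaller medians. With all mice 6 of their 142 tested genes (4.23%) were called higher and 1 lower, where 5.12% of all genes were called higher and 1.18% lower. When naïve mouse 1 or 2 or pre-exposed mouse 2 was left out 0 were called higher, and without pre-exposed mouse 5 it was 26 (18.3%), where 9.69% of all genes were called higher. With the trend in gene length removed, 1 was called higher, a replication gene, and 0 lower. The share of all genes called higher there was 1.38%. With all mice, against that share of 5.12%, 3 of 54 other mitosis genes rose and 0 fell, with a median log2 fold change of 0.64. Without mouse 5, 13 rose and 1 fell. Cdca8, borealin of the chromosomal passenger complex, had 57.1, 57.7, 35.8, 27.5 and 10.2 CPM in pre-exposed mice, against 7.34 to 20.5 CPM in naïve mice, and rose by 1.77 on the log2 scale (SE 0.43, edgeR adjusted p = 0.030). Cenpm, a centromere protein, had 4.44 to 9.25 CPM in pre-exposed and 0.931 to 2.75 CPM in naïve mice with no overlap (log2 fold change 2.06, SE 0.44, adjusted p = 0.020). Cks1b, a CDK-binding subunit, rose by 1.40 (SE 0.31, adjusted p = 0.022). Pttg1, securin, which holds back the protease that parts sister chromatids, had 71.6, 174, 156, 135 and 342 CPM in pre-exposed mice, against 67.7 to 95.3 CPM in naïve mice, and did not pass (adjusted p = 0.057).

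Of 46 other replication genes 2 rose and 0 fell, a share also near that of all genes, with a median log2 fold change of 0.48, and 10 rose without mouse 5. Gmnn, geminin, the inhibitor of Cdt1, had 35.3, 67.0, 50.3, 34.8 and 60.5 CPM in pre-exposed mice, against 15.1 to 28.1 CPM in naïve mice, and rose by 1.23 on the log2 scale (SE 0.27, edgeR adjusted p = 0.023). Dut, the dUTPase that keeps uracil out of DNA, had 63.0 to 129.6 CPM in pre-exposed and 43.3 to 49.8 CPM in naïve mice, and rose by 0.91 (SE 0.24, adjusted p = 0.039). Neither Gmnn nor Dut was low in mouse 5. Lig1, the ligase that joins Okazaki fragments, and Prim2, a primase subunit, did not pass, with log2 fold changes of 1.19 (adjusted p = 0.058) and 0.99 (adjusted p = 0.061).

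Upstream in G1, 1 of 15 cyclins, CDKs and activators rose, again near the share of all genes, and 0 fell, with a median of 0.42. Ccnd1, cyclin D1, was low, at 21.2, 17.3, 11.1, 7.70 and 0.727 CPM in pre-exposed mice, against 0.220 to 4.78 CPM in naïve mice, and rose by 2.74 on the log2 scale (SE 0.71, edgeR adjusted p = 0.038). Ccnd2, cyclin D2 and the main D cyclin here, had 419 to 814 CPM in pre-exposed and 267 to 459 CPM in naïve mice and did not pass (0.65, adjusted p = 0.12). Cdk4 and Mnat1 did not pass either, with log2 fold changes of 0.48 and 0.85.

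Of 14 tested CDK inhibitors and pocket proteins 0 rose and 1 fell, with a median of 0.03. The 1 that fell was Rbl2, the pocket protein p130 that holds cell cycle promoters silent in resting cells, with 275, 121, 199, 271 and 154 CPM in pre-exposed mice, against 324 to 404 CPM in naïve mice. No pre-exposed mouse reached the lowest naïve mouse for Rbl2, a pattern held by 2.17% of all genes tested. Its log2 fold change was -0.89 (SE 0.25, edgeR adjusted p = 0.047). Rbl2 is long, at 4888 bases, and with the length trend removed its log2 fold change was -0.60 (adjusted p = 0.13). With 1 mouse left out at a time the adjusted p of Rbl2 ranged over 0.019 to 0.11, and was past 0.05 without any one of the naïve mice or of pre-exposed mice 2 and 3. Rb1, Lin37 and Lin54, the last 2 being subunits of the DREAM complex with p130, did not pass, with log2 fold changes of -0.81, 0.61 and -0.61. Of 13 quiescence and antiproliferative genes 0 passed edgeR's test with all mice, 4 had an unadjusted p under 0.05, and DESeq2 called 1 higher. Their median was -0.05, and those 4 were Klf4 (1.28), Txnip (-0.69), Slfn2 (0.52) and Pdcd4 (0.87), each with its log2 fold change.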

How the data were processed

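Total RNA of sorted EM γδ T cells from 5 pre-exposed and 5 naïve mice was sequenced as paired-end libraries. Per the labels and the methods of the study, the authors aligned read pairs to mm10 with Subread and counted them per Entrez gene with featureCounts. The deposited values are raw counts, with the gene length in bases beside them, and the sources used here give neither the versions nor whether strand was used. Overlapping genes can therefore share counts. The whole-series table and the 10 single-library tables held identical counts.

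Symbols were matched by gene ID to RefSeq (GRCm38.p6) for 25275 of 27179 genes. After filterByExpr (13534 genes), 767 genes without a symbol and 112 immunoglobulin genes were removed, leaving 12655. Groups were compared in R 4.3.3 with edgeR 4.0.16 (quasi-likelihood test) and TMM scaling, no covariate, and Benjamini-Hochberg adjustment over all genes tested, at a threshold of 0.05. RPKM values use the deposited lengths. Alternatives were DESeq2 1.42.0, voom with limma 3.58.1 (robust TREAT at a 1.5-fold threshold, the settings the methods of the study state, with defaults elsewhere, or sample quality weights), other filters and scalings, a per-library loess offset on gene length (span 0.3), a replicate block, and each mouse left out. The tests were tried on simulated counts first. Libraries of 1 group differed beyond counting noise, and each is 1 mouse. Error of a level is mostly between mice, since members averaged 60.5 to 2614 counts per library, and intervals at 0 counts cover counting error only.

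The members and all lists were chosen with earlier results of these data known, so no test was made on a list. The genes named were, in each functional group, the 3 with the smallest p and the most abundant, plus Mki67, Top2a, Pcna, Stmn1 and every member that passed, and the 4 smallest p in each further list. Members outside this rule (Rrm2, Ccnb2, Melk, Plk1, Hmmr, Kif11, Kif20a, Bub1, Cenpf) were named after their values were seen. The γ chain constant genes and Hbb-bt of the marker lists were not analysed here. Promoters came from RefSeq, and 31 of the 36 starts lay in a GENCODE vM21 transcript in the printed orientation.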

Additional observations from a re-analysis of the deposited data

Results flagged for a closer look

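In 3 of 62 group checks on the named members and the group sums, 1 mouse lay far from the other 4 of its group, where chance gives about 1 in 20. All 3 concern pre-exposed mouse 1, which had 310.3 CPM of Top2a against 21.98 to 62.4 CPM in the other pre-exposed mice. It had 122 CPM of Mki67 against 18.1 to 24.2 CPM in the others, and 512 CPM for the summed proliferation markers on chromosomes against 67.2 to 139 CPM. Mki67 and Top2a make up most of that sum, so the 3 are not separate observations.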

How the results depend on the processing

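Members called lower stayed at 0 under every alternative run. Against 2 members called higher, DESeq2 gave 5, voom with sample quality weights 17, mice 2 to 4 alone 12, the length trend removed 1, the length trend removed without mouse 5 16, the legacy edgeR method 1, and voom with TREAT, mice 1 and 5 alone and label style as a covariate 0 each. Leaving out 1 mouse at a time gave 0 to 16 members higher, 81 to 1996 genes called in all, 0 to 26 genes higher and 0 to 3 lower in the other cell cycle lists. The count stayed at 2 with the 2 other filters, with size factors of DESeq2 in edgeR, and without pre-exposed mouse 1 or 4.

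Over all genes tested, 797 were called, against 1350 with DESeq2, 3571 with quality weights, 3903 with mice 2 to 4 alone, 27 with mice 1 and 5 alone, 214 with the length trend removed, 1358 when mouse 5 was also left out, 358 with the legacy method, 502 at a mean of at least 50 counts, 40 with label style as a covariate and 2 with TREAT. In the other cell cycle lists 6 were called higher, against 16 with DESeq2, 37 with quality weights, 30 with mice 2 to 4 alone, 1 with the length trend removed, 16 when mouse 5 was also left out, 3 with the legacy method, and 0 with label style, TREAT or mice 1 and 5 alone. There 1 was called lower, against 8 with quality weights, 12 with mice 2 to 4 alone, 3 with the length trend removed and mouse 5 left out, and 0 with no filter, label style, the legacy method, TREAT, the length trend removed or mice 1 and 5 alone.

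Same-numbered mice did not deviate together (correlations from -0.26 to 0.05), so the numbers do not pair them. The replicate block gave 0 members higher, 11 of them at an unadjusted p under 0.05, 55 genes called in all, and 0 higher and 0 lower in the other lists.

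None of the log2 fold changes that changed sign was called. With mice 2 to 4 alone they were -0.74 for Top2a, -0.89 for Mki67, -0.54 for Kif11, -0.76 for Bub1 and -0.083 for Ccne2. With the replicate block they were -0.22 for Top2a, -0.056 for Mki67, -0.17 for Kif11 and -0.060 for Bub1. With quality weights they were -0.26 for Top2a, -0.25 for Mki67, -0.38 for Bub1 and 0.12 for Kif20a, and with TREAT -0.21 for Top2a, -0.025 for Mki67 and -0.13 for Kif11. Label style as a covariate gave -0.21 for Mcm6 and 0.19 for Kif20a, and mice 1 and 5 alone gave -0.16 for Mcm6 and 0.23 for Kif20a. Kif20a was 0.15 with the length trend removed and 0.24 when mouse 5 was also left out. Leaving out 1 mouse at a time, ranges that crossed 0 were -0.92 to 0.44 for Top2a, -0.78 to 0.50 for Mki67, -0.67 to 0.73 for Kif11, -0.79 to 0.67 for Bub1, -0.33 to 0.20 for Kif20a and -0.014 to 0.18 for Mcm6. The cause was not tested. Melk and Aurkb had 3 and 0 counts in pre-exposed mouse 5, so their levels in that library rest on few counts.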
